A study of Mus musculus with 6 samples.

Results

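Connexins are the proteins of gap junctions, and 9 of their genes were followed in RNA from mouse cochlea: Gjb2, Gjb6, Gja1, Gjb1, Gjc3, Gjc1, Gja4, Gja5 and Gjd2. They were chosen by name, to cover the epithelial, connective tissue, glial, vascular and neuronal networks of the organ, and were found by Ensembl gene identifier among 48709 mouse genes. All 9 had enough reads to enter the test, which covered 20733 genes.

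The libraries came from 3 mice homozygous for Hgfdel10Neo (knock-in), an engineered allele that lacks 10 bp of intron 5 of Hgf and carries a Neo cassette, and from 3 Hgf+/+ littermates (wild-type). Hgf encodes hepatocyte growth factor, and variants of human HGF cause DFNB39, the recessive deafness that the series names as modelled. All mice were 5 to 27 weeks old, and no source used here gives the age, sex or litter of a single mouse. Whole frozen cochleae were pulverised and their ribo-depleted total RNA was read, so each value is an average over all cell types of the organ and of tissue dissected with it.

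Connexin subunits assemble into a hemichannel, and a pair of hemichannels from neighbouring cells docks into a channel that passes ions and small molecules. In the cochlea, Gjb2 and Gjb6 products (Cx26 and Cx30) mix in the same channels and join the supporting cells of the organ of Corti into one network. They join the fibrocytes of the lateral wall and the basal and intermediate cells of the stria vascularis into another. These networks carry potassium and metabolites, and mutations of human GJB2 are among the most frequent causes of recessive deafness.

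The libraries held between 24005234 and 42312291 gene counts. Neo was read 71, 199 and 5 times in knock-in replicates 1 to 3, and 5, 8 and 10 times in wild-type replicates 1 to 3, which puts Neo of the library labelled knock-in replicate 3 within the wild-type range. Hgf was at 10.07 ± 0.724 CPM (a gene's counts scaled to a common library total, with normalisation factors from the trimmed mean of M values, TMM) in knock-in and 15.6 ± 0.572 CPM in wild-type (SD, n = 3 each). Dct, a pigment cell gene of the stria, was at 22.4 ± 2.74 CPM in knock-in and 106 ± 8.86 CPM in wild-type (SD, n = 3 each). In knock-in replicate 3 itself, Hgf was at 10.5 CPM and Dct at 23.6 CPM, while the lowest wild-type values were 15.2 and 98.6 CPM. Xist was abundant in knock-in replicate 3 and wild-type replicate 2, with 17489 and 25380 counts, and no other library had more than 30. Cochlear marker genes were present in all libraries. Coch, a fibrocyte matrix gene, was at 2879 ± 255 CPM in knock-in and 2614 ± 209 CPM in wild-type. Myo7a, a hair cell myosin gene, was at 42.1 ± 1.34 CPM in knock-in and 42.04 ± 4.38 CPM in wild-type (SD, n = 3 each).

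The most alike stretches of Gjb2 and Gjb6 are shown first, because connexin genes resemble each other and reads could in principle be given to the wrong one. Over the 36 pairs of the 9 coding sequences, Gjb2 and Gjb6 came closest within the length of a read, 93 bases, where they still differed at 14 positions. The windows printed here are bases 151 to 243 of each coding sequence, on the reverse strand of GRCm38 at chr14:57100507-57100599 for Gjb2 and chr14:57124560-57124652 for Gjb6, with the differing bases in capitals.
Gjb2: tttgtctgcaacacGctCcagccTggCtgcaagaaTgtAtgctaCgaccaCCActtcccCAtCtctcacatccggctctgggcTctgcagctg
Gjb6: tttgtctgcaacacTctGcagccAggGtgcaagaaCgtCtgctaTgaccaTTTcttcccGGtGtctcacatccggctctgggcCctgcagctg
Each window holds 3 in-frame tgc codons with 6 and 3 codons between them, the cysteine spacing of the first extracellular loop, with which hemichannels dock. The other 35 member pairs differed at 18 to 42 positions in their closest window. The longest identical run in any member pair was 26 bases, far short of a read. Against the 11 connexin genes outside the 9, the closest window differed at 12 positions, between Gja1 and Gja6. Exons of other genes overlapped 2.87% of the exon bases of Gja5 (Gpr89, opposite strand), 1.98% and 0.625% of those of Gjd2 (2 gene models named A530058N18Rik, opposite strand), and none of the other 7 members' exons.

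Gjb2 (ENSMUSG00000046352) and Gjb6 (ENSMUSG00000040055) lie on chromosome 14, at 57098600 to 57104702 and 57123303 to 57133611, both on the reverse strand and 18600 bases apart, with 1 protein-coding gene model (Gm4491) between them. The bases just before their transcription starts are printed to show how unlike these windows of the most abundant members are. They come from RefSeq on GRCm38.p6, reverse strand, at chr14:57104703-57104952 for Gjb2 and chr14:57133612-57133861 for Gjb6, with GC boxes (GGGCGG, or CCGCCC on the other strand) in capitals.
Gjb2: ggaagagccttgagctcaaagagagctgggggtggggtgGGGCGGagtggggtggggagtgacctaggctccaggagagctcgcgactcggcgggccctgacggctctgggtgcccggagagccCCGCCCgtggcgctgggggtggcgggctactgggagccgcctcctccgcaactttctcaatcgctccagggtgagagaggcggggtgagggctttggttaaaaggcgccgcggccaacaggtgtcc
Gjb6: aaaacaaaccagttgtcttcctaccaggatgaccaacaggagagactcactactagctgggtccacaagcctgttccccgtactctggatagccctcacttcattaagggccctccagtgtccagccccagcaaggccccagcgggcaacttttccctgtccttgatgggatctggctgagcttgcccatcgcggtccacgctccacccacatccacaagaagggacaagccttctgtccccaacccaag
The Gjb2 window was 69.2% G and C with 2 GC boxes, and the Gjb6 window 56.8% with none. Among 32851 promoter windows of this length, the median was 52.4% G and C and 32.7% held a GC box. Neither window held TATAAA on either strand, a motif in 12.4% of all windows. Entries existed for 8 of the 9 members. A GC box stood in a window of 5 of these 8, Gjb2, Gja4, Gja5, Gjd2 and 1 of the 4 start sites of Gjb1. G and C content of member windows was between 40.4% and 74.0%, with Gjd2 the highest.

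The first question was how abundant each connexin RNA was relative to the others, which needs a level per length: CPM divided by the kilobases of exon of the gene. Gjb2 was the highest at 125 ± 8.41 CPM per kb, followed by Gjb6 at 75.8 ± 6.12 and Gja1 at 7.13 ± 0.701 CPM per kb (SD over 6 libraries). Gja1 encodes Cx43, the widespread connexin of fibroblasts, bone and many epithelia. Next came Gjb1 (Cx32), a connexin of myelinating Schwann cells and oligodendrocytes, at 2.06 ± 0.587 CPM per kb. Gjc3 (Cx29), found in Schwann cells, was at 1.72 ± 0.248 CPM per kb. The arterial endothelial connexin gene Gja4 (Cx37) was at 1.55 ± 0.33 CPM per kb, and Gjc1 (Cx45), a connexin of vascular muscle, at 1.15 ± 0.143 CPM per kb. At the low end stood Gjd2 (Cx36), the connexin of electrical synapses between neurons, at 0.42 ± 0.109 CPM per kb, and Gja5 (Cx40), of arterial endothelium, at 0.381 ± 0.0679 CPM per kb.

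Neighbours in this order were compared within each library by an exact two-sided sign-flip test over 6 libraries, adjusted over the 8 neighbour pairs. For 5 pairs all 6 libraries had the same order, with an exact p of 0.03125, the smallest this test can give, and adjusted p = 0.05, at the threshold but not under it. These were Gjb2 over Gjb6 by 1.65-fold, Gjb6 over Gja1 by 10.6-fold, Gja1 over Gjb1 by 3.55-fold, Gja4 over Gjc1 by 1.33-fold and Gjc1 over Gjd2 by 2.74-fold. The order of Gjb1 and Gjc3 held in 4 of 6 libraries, that of Gjc3 and Gja4 in 3 of 6, and that of Gjd2 and Gja5 in 5 of 6 (exact permutation p = 0.28125, 0.4375 and 0.15625), so these neighbours did not differ beyond their spread. The length used moved the size of some steps. With the longest annotated transcript in place of all exons, Gja1 was at 18.8 ± 1.85 CPM per kb, because its exons together span 10257 bases and its longest transcript 3889. Gjb2 then exceeded Gjb6 by 1.3-fold, Gjb6 exceeded Gja1 by 5.13-fold and Gja1 exceeded Gjb1 by 8.69-fold. The order of Gjc1 with Gja4 and of Gja5 with Gjd2 also turned round, so no order is drawn within these couples.

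**Figure D1:**
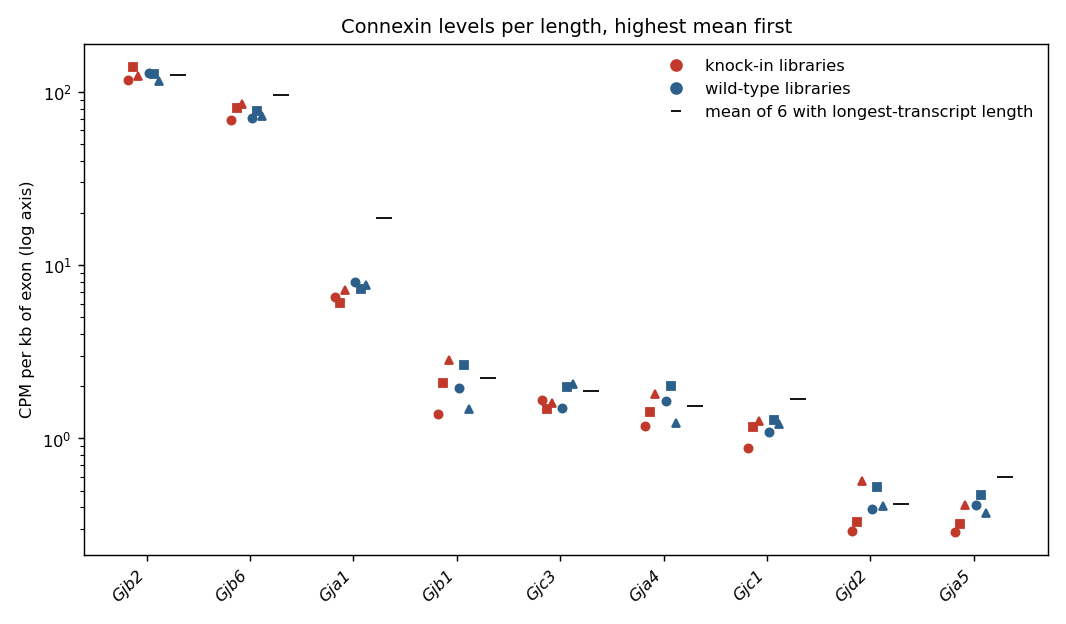
Level of the 9 connexin genes per length (vertical log axis, CPM per kb of exon), ordered by mean over 6 libraries, with 1 point per library (circle, square and triangle for replicates 1 to 3) and a dash for the mean with the longest transcript as length. Gjb2 and Gjb6 stand above Gja1 and all others in every library.

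Gjb2 and Gjb6 together made up 93.2% ± 0.755 of the summed level per kb of all 20 connexin genes in knock-in and 92.4% ± 0.173 in wild-type (SD, n = 3 each). Gjb2 alone took 57.6% ± 2.5 in knock-in and 57.9% ± 1.6 in wild-type, and Gjb6 35.6% ± 1.8 in knock-in and 34.5% ± 1.46 in wild-type. By longest transcript, Gjb2 took 50.05% ± 2.55 in knock-in and 50.04% ± 1.52 in wild-type. Gjb6 then took 39.3% ± 1.71 in knock-in and 37.8% ± 1.5 in wild-type. Together they took 89.3% ± 1.07 in knock-in and 87.9% ± 0.21 in wild-type by that length. Gja1 took 3.04% ± 0.38 in knock-in and 3.58% ± 0.267 in wild-type, or 6.97% ± 0.824 and 8.15% ± 0.587 by longest transcript. The 9 members held 99.42% in knock-in and 99.45% in wild-type.

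The second question was whether the genotypes differed in connexin RNA. By edgeR's quasi-likelihood test at a Benjamini-Hochberg adjusted p of 0.05, 0 of the 9 genes were called, beside 0.0338% of the 20733 genes tested (0.0241% lower and 0.00965% higher in knock-in), 7 genes in all. An unadjusted p under 0.05 was found for 0 of the 9 and for 4.5% of all genes. DESeq2 also called 0 of the 9 and 0.116% of its genes, and limma-voom 0 of the 9 and 0.0386%. The authors' deposited table called 0 of the 9 and 0.181% of its genes by adjusted p, and 0 of the 9 and 3.27% by unadjusted p. The fold change was below zero on the log2 scale for 6 of the 9, against 49.8% of all genes. The median over all 9 members was -0.16, against 0.00 over all genes tested. Among the 9, the libraries of Gja1 alone did not overlap between groups, which 8.72% of all genes showed, 4.01% with knock-in lower. With such a background, 1 of 9 is no result about connexins.

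Gjb2 was at 281, 333 and 295 CPM in knock-in replicates 1 to 3, against 309, 305 and 279 CPM in wild-type replicates 1 to 3. The groups overlapped throughout, with the highest and the second lowest value both in knock-in. The log2 fold change was 0.02 (SE 0.111), with a 95% interval from 0.856-fold to 1.21-fold (edgeR adjusted p = 0.993). Gjb6 was at 184, 215 and 226 CPM in knock-in replicates 1 to 3, against 189, 208 and 194 CPM in wild-type replicates 1 to 3. Knock-in held both its lowest and its highest value, and the log2 fold change was 0.08 (SE 0.111; interval 0.89-fold to 1.26-fold; edgeR adjusted p = 0.976). Without knock-in replicate 3, the log2 fold change was 0.04 for Gjb2 and 0.02 for Gjb6. A change of either gene by 1.5-fold in either direction lay outside these intervals. The list of strial intermediate cell markers, Dct among them, summed to between 114 and 136 CPM in knock-in and between 253 and 278 CPM in wild-type. All 6 of its genes were below zero on the log2 scale (49.8% of all genes were), 3 of them called (0.0338% of all genes), and none at 0. That list was chosen with earlier results of these data known, so its counts are a description and no test. In whole tissue, fewer cells of a type and less RNA per cell cannot be told apart.

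Because Gjb2 and Gjb6 products share channels, their ratio was compared as well. The Gjb2 to Gjb6 ratio of levels per kb was 1.7, 1.72 and 1.45 in knock-in replicates 1 to 3, against 1.82, 1.63 and 1.6 in wild-type replicates 1 to 3. By longest transcript, these ratios were lower, at 1.33, 1.35 and 1.14 in knock-in replicates 1 to 3. The wild-type ratios were then 1.43, 1.285 and 1.26 in replicates 1 to 3. The lowest ratio was in knock-in replicate 3 and the highest in wild-type replicate 1, and the difference of mean log2 ratios was -0.05 (exact two-sided permutation p = 0.7; 3 against 3 libraries cannot go below 0.1). Without knock-in replicate 3, the library with Neo at the wild-type level, the difference was 0.02.

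Gja1 (ENSMUSG00000050953; chromosome 10, 56377330 to 56402513, forward strand) was at 67.3, 62.3 and 74.1 CPM in knock-in replicates 1 to 3, against 81.8, 74.3 and 78.7 CPM in wild-type replicates 1 to 3. All knock-in libraries were lower, but the highest of them, replicate 3, and the lowest wild-type library, replicate 2, differed by less than 1 CPM. The log2 fold change was -0.2 (SE 0.0987), with an interval from 0.744-fold to 1.01-fold (unadjusted p = 0.0659; edgeR adjusted p = 0.966). Without knock-in replicate 3 it was -0.27 (unadjusted p = 0.0252; edgeR adjusted p = 0.999), and without knock-in replicate 2 it was -0.15. Gja1 is made by cells of many kinds. Osteoblast markers summed to between 3331 and 4186 CPM in knock-in and between 2734 and 4393 CPM in wild-type, with Sp7, an osteoblast regulator, at 0.16 on the log2 scale. Cartilage markers summed to between 185 and 478 CPM in knock-in and 122 and 211 CPM in wild-type, with 8 of 8 positive and 6 at an unadjusted p under 0.05 (Col10a1, of growth cartilage, at 3.71), and adipocyte markers to between 175 and 809 CPM in knock-in and 102 and 196 CPM in wild-type, with 7 of 7 positive and all at an unadjusted p under 0.05 (Cidec, of fat droplets, at 2.08 on the log2 scale). Over all genes tested, 49.8% were negative and 4.5% had an unadjusted p under 0.05 by edgeR. None of the genes in these 3 lists was called or at 0, and their part in the Gja1 values was not tested.

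**Figure D2:**
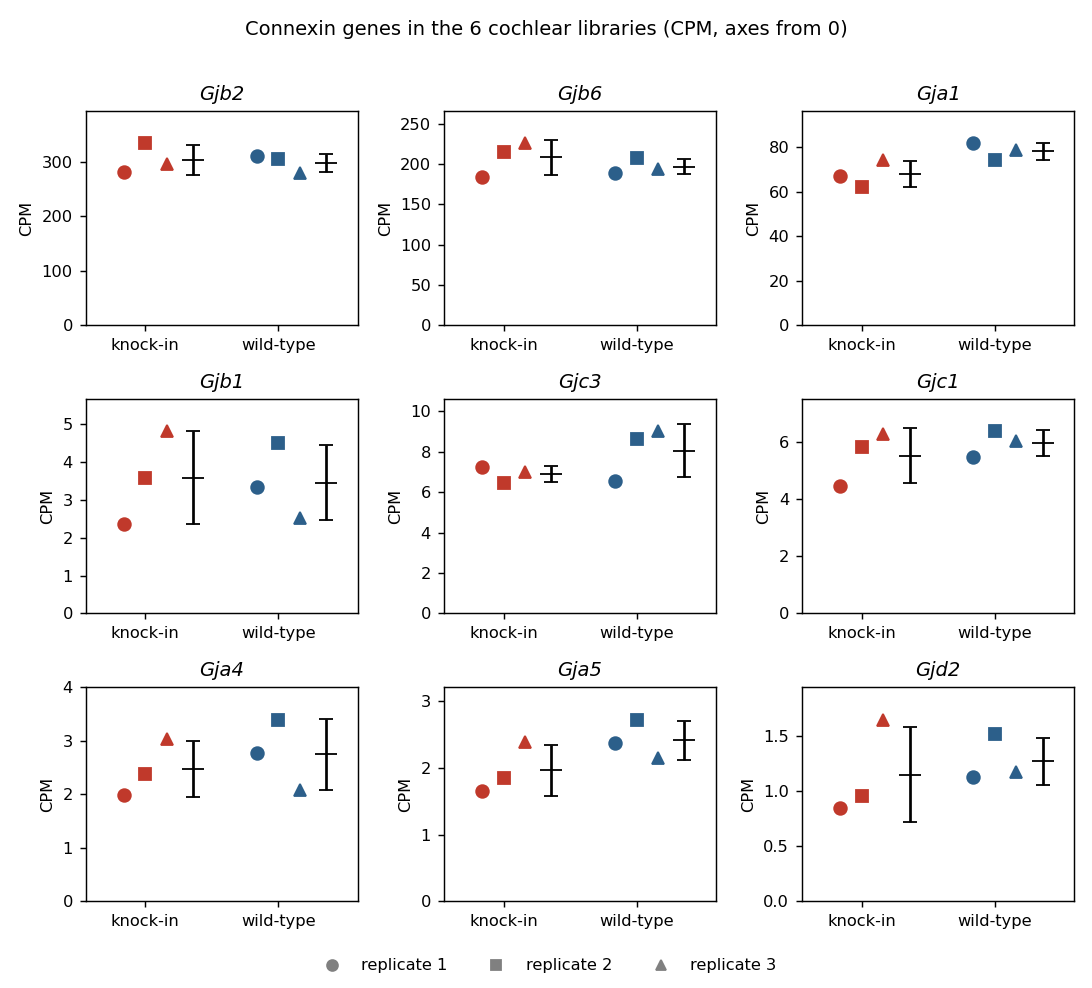
CPM of each connexin gene (vertical axes from 0) in the 3 knock-in and the 3 wild-type libraries, with 1 symbol per library and the group mean with its SD in black. Only Gja1 shows groups that do not overlap, with 62.3 to 74.1 CPM in knock-in and 74.3 to 81.8 CPM in wild-type.

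Of the glial connexins, Gjb1 (ENSMUSG00000047797; chromosome X, 101376378 to 101385629, forward strand) was at 2.35, 3.58 and 4.81 CPM in knock-in replicates 1 to 3, against 3.34, 4.51 and 2.53 CPM in wild-type replicates 1 to 3. The spread within each group was about as wide as the whole range, and the log2 fold change was 0.05 (SE 0.293; interval 0.655-fold to 1.63-fold; edgeR adjusted p = 0.994). It was -0.22 without knock-in replicate 3 and -0.15 without wild-type replicate 3, but 0.28 without knock-in replicate 1 and 0.29 without wild-type replicate 2. Gjc3 (ENSMUSG00000056966; chromosome 5, 137953461 to 137963098, reverse strand) was at 7.24, 6.45 and 6.98 CPM in knock-in replicates 1 to 3, against 6.55, 8.61 and 9.01 CPM in wild-type replicates 1 to 3. The knock-in libraries lay close together, wild-type replicate 1 lay among them and the other wild-type libraries lay above. The log2 fold change was -0.23 (SE 0.155; interval 0.67-fold to 1.09-fold; edgeR adjusted p = 0.966), and -0.24 without knock-in replicate 3. It was -0.36 without wild-type replicate 1 (unadjusted p = 0.038; edgeR adjusted p = 0.999), and -0.18 and -0.14 without wild-type replicates 2 and 3.

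Markers of myelinating cells varied between libraries as well. Schwann cell markers summed to 672, 681 and 909 CPM in knock-in replicates 1 to 3, against 721, 1014 and 799 CPM in wild-type replicates 1 to 3. Of the 10 genes, 8 were negative, 4 had an unadjusted p under 0.05, 3 did not overlap between groups and none was called. Over all genes tested, these shares were 49.8% negative, 4.5% with such a p by edgeR and 8.72% without overlap. Egr2, a myelination regulator, had the smallest p (log2 fold change -0.78, edgeR adjusted p = 0.966). Central glia markers, of oligodendrocytes and astrocytes, summed to 116, 178 and 239 CPM in knock-in replicates 1 to 3, against 159, 187 and 142 CPM in wild-type replicates 1 to 3, with Mobp, an oligodendrocyte gene, at 0.33 on the log2 scale (edgeR adjusted p = 0.972). Of the 8 central glia genes, 7 were tested. Opalin, which was not, had 0 counts in knock-in replicate 1 and in wild-type replicate 1. Gjb1 followed the order of the central glia sum in each group, and Gjc3 followed neither sum. The sum of endothelial markers, given below, had the same order as the central glia sum, so that order was not particular to glia. Across 6 libraries, with group means removed, r was 0.95 between Gjb1 and the central glia sum and 0.47 between Gjc3 and the Schwann cell sum, as descriptions of values that share libraries and depth. The part of these cells in the connexin values was not tested.

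Of the vascular connexins, Gja4 (ENSMUSG00000050234; chromosome 4, 127311421 to 127314039, reverse strand) was at 1.99, 2.39 and 3.03 CPM in knock-in replicates 1 to 3, against 2.77, 3.4 and 2.08 CPM in wild-type replicates 1 to 3. The groups overlapped, and the log2 fold change was -0.16 (SE 0.245; interval 0.613-fold to 1.32-fold; edgeR adjusted p = 0.98). It was -0.32 without knock-in replicate 3, -0.01 without knock-in replicate 1 and 0.03 without wild-type replicate 2. Gja5 (ENSMUSG00000057123; chromosome 3, 96904693 to 97077416, forward strand) was at 1.66, 1.84 and 2.38 CPM in knock-in replicates 1 to 3, against 2.37, 2.73 and 2.15 CPM in wild-type replicates 1 to 3. Knock-in replicate 3 exceeded 2 wild-type libraries and the other knock-in libraries lay below all of them. The log2 fold change was -0.31 (SE 0.215; interval 0.579-fold to 1.13-fold; edgeR adjusted p = 0.966), and -0.46 without knock-in replicate 3 (edgeR adjusted p = 0.999). It was -0.19 without knock-in replicate 1 and -0.21 without wild-type replicate 2. Gjc1 (ENSMUSG00000034520; chromosome 11, 102799579 to 102819700, reverse strand) was at 4.44, 5.8 and 6.28 CPM in knock-in replicates 1 to 3, against 5.47, 6.36 and 6.04 CPM in wild-type replicates 1 to 3. Knock-in replicate 1 was below all others, and the log2 fold change was -0.12 (SE 0.17; interval 0.707-fold to 1.2-fold; edgeR adjusted p = 0.976). It was -0.22 without knock-in replicate 3 and 0.02 without knock-in replicate 1.

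Endothelial markers summed to 310, 341 and 401 CPM in knock-in replicates 1 to 3, against 356, 373 and 331 CPM in wild-type replicates 1 to 3. Gja4 and Gja5 had the same order of libraries as this sum within each group, with r of 0.91 and 0.98 across 6 libraries with group means removed. The arterial, smooth muscle and pericyte, and central glia sums had that order too, and so did Gjb1, so it was not particular to endothelium. By the same measure, r was 0.89 between Gja4 and the smooth muscle and pericyte sum, and 0.97 between Gja4 and Gjb1. Gjc1 did not have this order of libraries in wild-type. Its r was 0.79 with the endothelial sum and 0.81 with the smooth muscle and pericyte sum. The median of the 8 endothelial genes was -0.01 on the log2 scale with Cdh5, an endothelial cadherin gene, at -0.15, and that of the 8 arterial genes -0.19, with Bmx, an endothelial kinase gene, at -0.25 (edgeR adjusted p = 0.966). Smooth muscle and pericyte markers summed to between 435 and 632 CPM in knock-in and 503 and 615 CPM in wild-type, with Myh11, a smooth muscle myosin gene, at -0.54 (edgeR adjusted p = 0.966). No gene of these lists was called or at 0. Whether vessel content set the Gja4 and Gja5 values was not tested.

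The neuronal connexin Gjd2 (ENSMUSG00000068615; chromosome 2, 114009601 to 114013619, reverse strand) had 28, 28 and 38 counts in knock-in replicates 1 to 3, against 28, 45 and 49 counts in wild-type replicates 1 to 3. On the CPM scale these were 0.845, 0.956 and 1.65 in knock-in and 1.13, 1.51 and 1.17 in wild-type, so knock-in held the 2 lowest values and the highest. The log2 fold change was -0.17 (SE 0.299), and the interval, 0.559-fold to 1.42-fold, did not exclude a change by 1.5-fold downwards (edgeR adjusted p = 0.982). It was -0.5 without knock-in replicate 3 (edgeR adjusted p = 0.999) and 0.02 without knock-in replicate 1. Neuron markers had a median of -0.29 with 10 of 10 negative (49.8% of all genes were) and none called (0.0338% of all genes were). All 10 overlapped between groups, while 8.72% of all genes did not. Nefh, a neurofilament gene, had the smallest p of the neuron markers (unadjusted p = 0.0598). These markers summed to 687, 439 and 634 CPM in knock-in and 569, 841 and 801 CPM in wild-type, an order that Gjd2 did not follow.

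**Figure D3:**
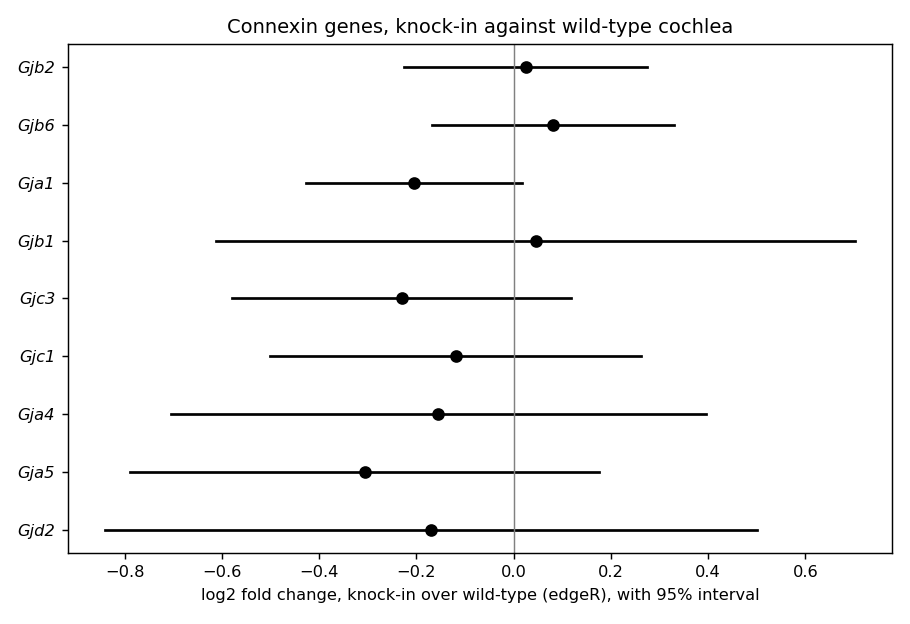
Log2 fold change of connexin genes, knock-in over wild-type (horizontal axis), with 95% intervals from edgeR. Points are estimates, 1 for each of the 9 genes. Every interval includes 0, and the intervals of Gjb2, Gjb6 and Gja1 are the narrowest.

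Other genes of the gap junction system were set beside the members. All 3 pannexins, channel proteins unrelated in sequence to connexins, were tested and none was called. Panx1, the widespread member, was at 9.41 ± 1.82 CPM in knock-in and 10.8 ± 0.446 CPM in wild-type, and Panx3, known from cartilage and bone, at 5.00 ± 2.02 CPM in knock-in and 4.02 ± 0.325 CPM in wild-type (SD, n = 3 each). Of 20 partner and trafficking genes, all tested and none called, 15 had negative (49.8% of all genes did) and 5 positive log2 fold changes, with a median of -0.05. Tubb5, a tubulin gene, had the smallest unadjusted p (0.117) with a log2 fold change of -0.22, followed by Ezr, which encodes the membrane linker ezrin, at -0.18 (unadjusted p = 0.128). Tjp1, whose product ZO-1 binds the tail of Cx43, was at 193 ± 9.35 CPM in knock-in and 201 ± 11.8 CPM in wild-type (SD, n = 3 each).

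The members did not vary together in a single way. Of the 9, Gjb6, Gjb1, Gjc1, Gja4, Gja5 and Gjd2, 6 in all, were highest in knock-in replicate 3 among knock-in libraries and in wild-type replicate 2 among wild-type libraries, a pattern of 16.7% of all genes tested. These are the 2 libraries with abundant Xist. In a fit with Xist as a covariate, read after this order had been seen, the Xist term passed an adjusted p of 0.05 for 0.352% of all genes and 0 of the 9, and an unadjusted p under 0.05 for 13% of all genes and 3 of the 9. These were Gjb1, Gjd2 and Gja4, which were 0.66, 0.62 and 0.48 log2 units higher in the libraries with abundant Xist (edgeR adjusted p = 0.266, 0.333 and 0.367). Gjb2 was highest in knock-in replicate 2 and wild-type replicate 1, and Gjc3 in knock-in replicate 1 and wild-type replicate 3. With group means removed, r across 6 libraries was 0.99 between Gjb6 and Gjc1 and 0.45 between Gjb2 and Gjb6. Spiral ligament fibrocyte markers summed to 4027, 4458 and 4945 CPM in knock-in replicates 1 to 3, against 3619, 4299 and 4063 CPM in wild-type replicates 1 to 3, the order of Gjb6 in each group, and r with Gjb6 was 0.9. The strial intermediate cell sum had that order too, with 114, 131 and 136 CPM in knock-in replicates 1 to 3, against 253, 278 and 276 CPM in wild-type replicates 1 to 3, and its r with Gjb6 was 0.95. Gjb2 had the order of neither sum, with r of 0.07 for the fibrocyte sum and 0.28 for the strial sum. Not every fibrocyte gene had the knock-in order of the fibrocyte sum. Coch was at 2588, 3063 and 2988 CPM in knock-in replicates 1 to 3, highest in replicate 2. Car3, of the same list, was at 607, 528 and 1194 CPM there, and the top place of replicate 3 in the sum came from it. Otos, a fibrocyte gene, had the smallest p of the fibrocyte list (log2 fold change -0.51, edgeR adjusted p = 0.966). Epithelial supporting cell markers summed to 509, 546 and 530 CPM in knock-in replicates 1 to 3, against 433, 489 and 427 CPM in wild-type replicates 1 to 3. Neither Gjb2 nor Gjb6 had the order of that sum in both groups (r = 0.57 and 0.65). No overlap between groups was seen in that sum, but each of its 10 genes overlapped, while 8.72% of all genes did not. The pannexin sum did not overlap either, at 18.8 to 19.0 CPM in knock-in and 19.7 to 19.8 CPM in wild-type, but each of its 3 genes overlapped. Of these 3, 1 was positive and 2 were negative. Of the 10 supporting cell genes, 8 were positive (49.8% of all genes were negative), the median was 0.15 and none was called. Among them, Slc1a3, a glutamate transporter gene, had the smallest p (log2 fold change 0.27, edgeR adjusted p = 0.966).

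**Figure D4:**
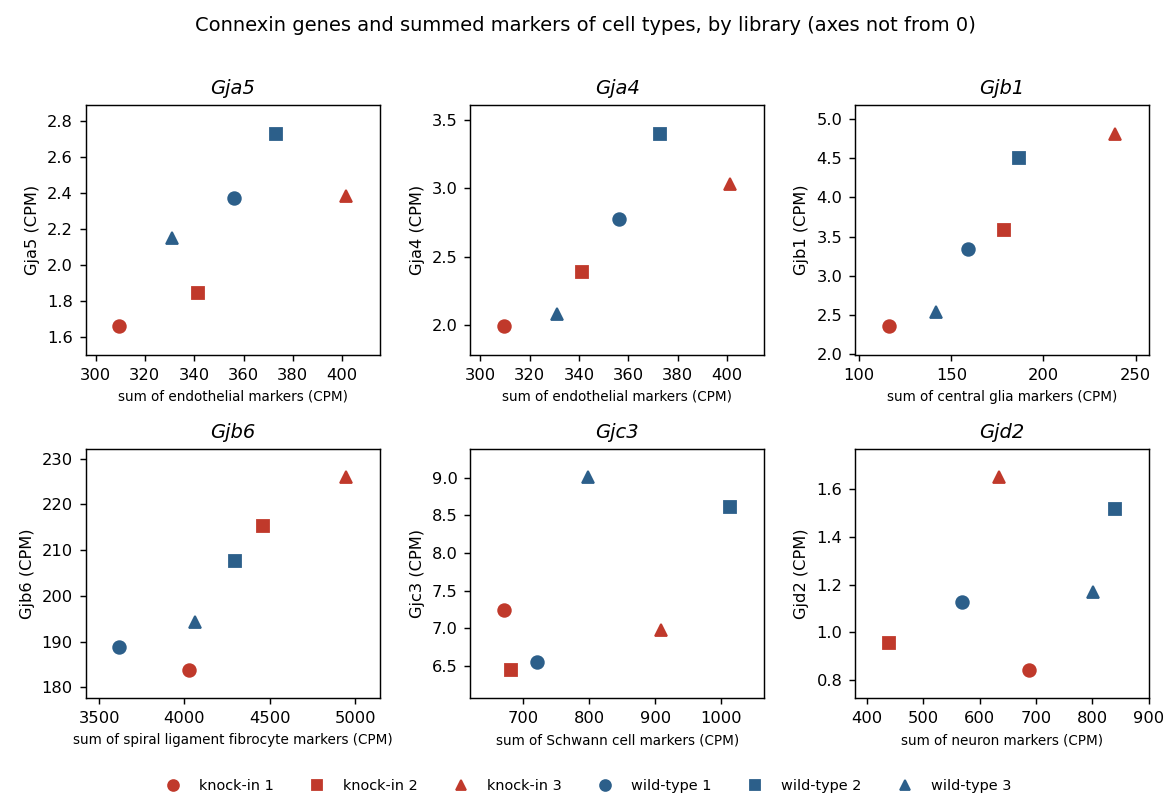
Each panel plots a connexin gene (vertical axis, CPM) against the summed CPM of a marker list (horizontal axis), with 1 symbol per library. Gja5 and Gja4 follow the endothelial sum, Gjb1 the central glia sum and Gjb6 the fibrocyte sum within each group. The endothelial and central glia sums share their order of libraries, and the strial intermediate cell sum (not drawn) has the order of Gjb6, so these likenesses are not particular to a cell type. Gjc3 does not follow the Schwann cell sum, nor Gjd2 the neuron sum. Of the members not drawn, Gjb2 does not follow the fibrocyte sum, and Gjc1 does not follow the endothelial sum in wild-type. Axes do not start at 0.

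By the same measure, the named protein-coding genes most like Gjb2 among 14373 with a mean of at least 1 CPM were Arg2, Tldc1 and Ceacam2 (r = 0.997, 0.99 and 0.989). For Gjb6 they were Pomk, Tsc22d1 and Nat8f4 (r = 0.999 for each), and for Gja1 Ccdc103, Nsfl1c and Rab4b (r = 0.999, 0.997 and 0.992). With 6 libraries many genes reach such values: 118 genes had r of at least 0.9 with Gjb2, 471 with Gjb6 and 148 with Gja1.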

How the data were processed

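RNA from 6 cochleae was sequenced as pairs of 93 bases after ribo-depletion, per the labels' protocols. Reads were mapped with STAR 2.5.2 to GRCm38 (GENCODE M11), per the submitters' processing notes and the series' design text. No source used here names the counting program or its strand setting. The authors deposited raw read counts per gene. The authors also deposited a DESeq2 table with a mean signal (size-factor-scaled counts), a log2 fold change, a score (fold change over its standard error) and p-values. Their transformed log table was not used.

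The 24 spike-in and transgene rows, at most 0.0045% of a library, were kept out of totals and fits. Symbols, exon lengths and coordinates came from GENCODE M21, the same build, where 48349 identifiers matched. The statistic of a chi-square test per degree of freedom was 21 to 49 over all 15 pairs of libraries, so none was a repeat. Tests used edgeR 4.0.16 (filterByExpr, TMM, quasi-likelihood F test, group as the only term, Benjamini-Hochberg over all genes tested, threshold 0.05) in R 4.3.3, with scipy 1.17.1 for single values. CPM use TMM-scaled totals. The standard error was the fold change over the square root of F, and intervals are 95%. Ratios of levels used a pseudocount of 0.01 CPM per kb in the neighbour test. Alternatives were RLE and upper-quartile scaling, no filter or at least 1 CPM in 3 libraries, the bias-adjusted fit, DESeq2 1.42.0, limma-voom 3.58.1, Xist as a covariate, each library left out, transcript length, a pseudocount of 0.1 and likeness without centring.

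Named were all 9 members, pannexins and partner genes by smallest p, and 1 gene per marker list by smallest p; Tjp1, Coch and Myo7a were added after their values were seen. Members and lists were chosen with earlier results of these data known. Replicate numbers follow accession order and pair no samples. The 3 mice per group are separate animals, per the series' design text. Values of single connexins outside the 9 members are not reported here.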

Additional observations from a re-analysis of the deposited data

Results flagged for a closer look

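Reads of the Neo cassette lay outside the comparisons of genes. Knock-in replicate 1 held 2.062 CPM of Neo, and knock-in replicate 2 held 6.994, both above the 95% exact Poisson intervals of every wild-type library, the highest of which ended at 0.543 CPM. Knock-in replicate 3 stood at 0.208 CPM, and wild-type libraries had 0.207 to 0.276 CPM, on unscaled totals. Intervals cover counting error only.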

How the results depend on the processing

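None of the 9 connexin genes was called under any of the 14 alternatives, with adjusted p of 0.654 or more. Direction turned in 7 of 126 gene results, each when 1 library was left out. Over libraries left out, Gjb2 ranged from -0.0494 (without knock-in replicate 2) to 0.081 on the log2 scale and was -0.0227 without wild-type replicate 3. Gjb1 ranged from -0.218 (without knock-in replicate 3) to 0.286 and was -0.149 without wild-type replicate 3. Gjc3 ranged from -0.356 (without wild-type replicate 1) to -0.144 (without wild-type replicate 3) and Gja5 from -0.462 (without knock-in replicate 3) to -0.193 (without knock-in replicate 1). Gjc1 ranged from -0.224 to 0.021 and Gjd2 from -0.498 to 0.0204, both turning without knock-in replicate 1, and Gja4 from -0.335 to 0.0297, turning without wild-type replicate 2. The Gjb2 to Gjb6 difference ranged from -0.0989 to 0.0226, turning without knock-in replicate 3 (0.0226) and wild-type replicate 1 (0.0028). The count of 7 genes called over all genes was 76 with no filter, 29 with DESeq2 and 11 with the Xist covariate, and 3 to 21 with a library left out (21 without knock-in replicate 1; 3 without knock-in replicate 3 or wild-type replicate 2; 4 without wild-type replicate 1); the cause was not tested. By longest transcript, Gjb2 over Gjb6, Gjb6 over Gja1 and Gja1 over Gjb1 again held in all libraries. Gjc1 stood over Gja4 in 4 of 6, Gjc1 and Gjd2 were no longer neighbours, and Gja4 over Gja5 and Gja5 over Gjd2 held in all. With a pseudocount of 0.1 the pairs in one order were those found with 0.01, and with a library left out 5 or 6 pairs were in one order, where the test cannot reach 0.05. Without centring, 5 of the 9 genes named for likeness remained. No paired analysis was possible because the labels give no shared replicate numbers. Gjd2, Gja5, Gja4 and Gjb1 had 216 to 617 counts each over 6 libraries; counting error and the spread between mice were not separated.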

Other observations

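In the authors' deposited table, Gja1 had a log2 fold change of -0.21 with an unadjusted p of 0.0868, the smallest of the 9 connexin genes there too.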
